A study of Rattus norvegicus with 12 samples.

Results

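Testis RNA of male Sprague Dawley rats exposed to restraint stress plus ice-water swimming (RS+IS) for 14 days (3 libraries) was compared with that of rats exposed for 3 days (3 libraries), that is, 6 of the 12 libraries of the series. The members were chosen by their titles, RS+IS_14D and RS+IS_3D. The other libraries were 3 from control rats and 3 from rats after 21 days of RS+IS. The study kept controls at each time point, and the titles of the control libraries do not say which one they belong to. In comparisons with control, stress and time thus cannot be told apart. In the study's methods, stressed rats were restrained every day and then swam in ice water, while control rats moved freely but had no food or water over the same hours. All rats were SD rats labelled as 8 weeks old, and the labels do not say whether that was their age at the start or at sampling. The study's methods describe rats of 8 weeks that were fed for a week before the experiments, which places this age before the stress. The length of exposure and the time spent in the experiment cannot be told apart. Whole testis was used, no sort or transgene was involved, and the labels do not state that each library is a separate animal, so the p-values measure the spread between these samples.

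In the seminiferous tubules, spermatogonia (SPG) divide by mitosis at the basement membrane, become spermatocytes (SPC) that pass through the long prophase of meiosis, and leave meiosis as haploid round spermatids. Spermatids then replace their histones by transition proteins and protamines, build a flagellum and an acrosome, and shed most of their cytoplasm. Much of the messenger RNA for these last steps is made in round spermatids and stored until it is translated.

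Each library was measured as an estimated count for every Ensembl transcript, between 23908048 and 29404590 counts in all. The 578 germ cell markers of the study's list (12 SPG, 181 SPC and 385 spermatid markers) were found among the transcripts by their counts, and all 578 had at least 10 counts in each of the 6 libraries. Transcripts outside this list carry no gene name here, so markers of Sertoli, Leydig, peritubular and blood cells were not analysed. Levels are given in CPM, counts relative to library size with TMM factors, and fold changes as 14-day over 3-day. Levels in CPM are not divided by transcript length and are compared between libraries only.

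Over all 21139 features with enough counts, no feature reached an adjusted p under 0.05 with edgeR (0% called). The lowest adjusted p was 0.131, shared by 18 features, of which Tnp1 was the only marker. At an unadjusted p under 0.05, 1634 features were higher at 14 days (7.73% of those tested) and 1195 were lower (5.65%). Scaling to the total count in place of TMM, whose factors were 1.003 to 1.016 at 3 days and 0.992 at 14 days, gave 1343 higher and 1620 lower features. DESeq2 called 411 features at an adjusted p under 0.05, 319 higher and 92 lower. Leaving out a library in edgeR gave 2 features at an adjusted p under 0.05 without 14-day library 2, 2 without 14-day library 3 and 1 without 3-day library 1, and without the last 727 features were lower at the unadjusted threshold. Every 14-day library lay above every 3-day library for 2247 features (10.6%) and below for 2148 features (10.2%). The differences were small: the quartiles of the log2 fold change were -0.13 and 0.15, with a median of -0.01. A log2 fold change of at least 1 in either direction with an unadjusted p under 0.05 was found for 245 features, none of them a marker, and 125 of these had a mean below 1 CPM. Over all features the root mean square log2 difference between libraries had a median of 0.405 for pairs within a group and 0.433 for pairs across the groups. The distances overlapped, and 3 of the 9 pairs across the groups lay above all 6 pairs within.

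The 3 marker classes lay on different sides of the remaining transcripts, with SPG markers lowest and spermatid markers highest at 14 days relative to 3 days. Of the 385 spermatid markers, 178 were higher at 14 days at an unadjusted p under 0.05 (46.2%, against 7.73% of all features) and 4 were lower (1.04%, against 5.65%), with a median log2 fold change of 0.14. Of the 181 SPC markers, 0 were higher and 21 were lower (11.6%), with a median of -0.04. Of the 12 SPG markers, 0 were higher and 6 were lower (50.0%), with a median of -0.18. Markers are abundant transcripts, and in the bin of 4228 features with the highest level, of 5 equal bins, 13.9% were higher and 7.66% were lower. DESeq2 called 79 markers at an adjusted p under 0.05, of which 74 were spermatid markers higher at 14 days. The other 5 were lower, namely the SPG marker Ccne2 and the SPC markers Sycp3, Smc4, Calm2 and Cox7b2. With all 12 libraries in one fit, 103 spermatid markers were higher and 7 SPC markers were lower. In that fit 1281 features of all were higher and 808 lower, so the share of SPC markers that were lower was near that of all features. In whole testis, a change in the number of cells of a type and a change in RNA per cell cannot be told apart. CPM is relative, so a higher level of a class does not mean more cells of that type. By immunohistochemistry the study counted fewer Stra8-, Sycp3-, Piwil1- and Tnp1-positive cells at 14 days than at 3 days. Those counts rest on protein in sections and were not tested against the RNA here. The spermatid markers held 9.12% to 9.69% of all counts at 3 days and 9.94% to 10.7% at 14 days, and the 100 most abundant transcripts held 15.1% to 15.2% and 15.6% to 15.7%. The part of this shift in the single values was not tested.

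**Figure D1:**
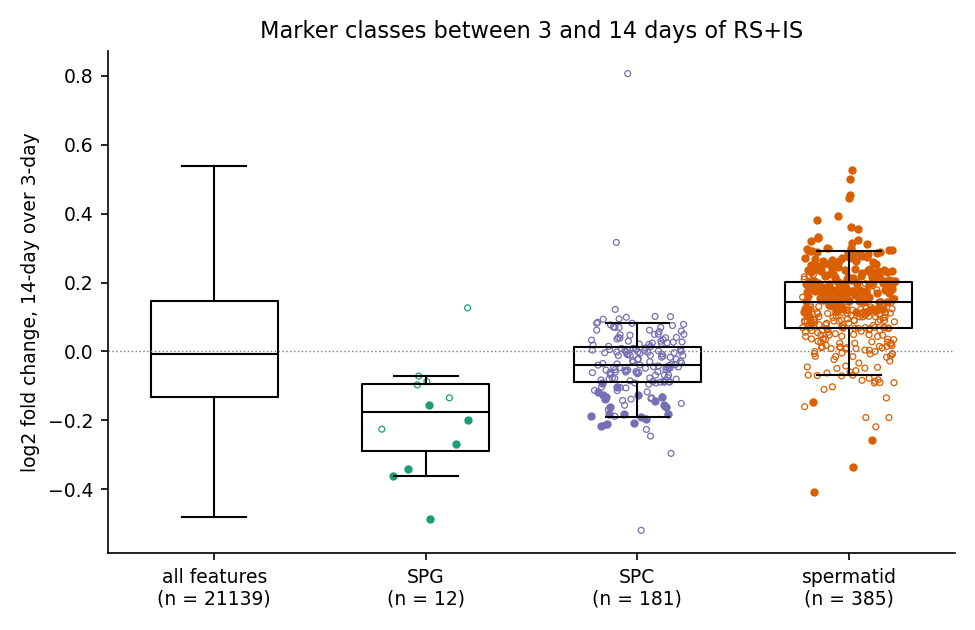
Log2 fold change of 14-day over 3-day libraries (vertical axis) for all 21139 features and the 3 marker classes. Boxes show quartiles, whiskers the 5th to 95th percentile, and points single markers, filled where the unadjusted edgeR p was under 0.05; filled points lie almost all above 0 for spermatid markers (178 of 182) and all below 0 for SPG and SPC markers.

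The separation was uneven between single libraries. For the spermatid markers, the median log2 level relative to the mean of the 6 libraries was -0.12, -0.02 and -0.06 in the 3-day libraries and 0.09, 0.01 and 0.11 in the 14-day libraries. The groups did not overlap, and 14-day library 2 and 3-day library 2 were nearest to each other. Without 14-day library 2, 204 spermatid markers were higher. The count was 114 without 3-day library 1, 115 without 14-day library 3 and 117 without 14-day library 1. For the SPG markers, the same measure was 0.18, 0.06 and 0.04 at 3 days and -0.06, -0.10 and -0.11 at 14 days, and by the root mean square log2 difference over these markers all 9 pairs of libraries across the groups were farther apart than any pair within a group. Without 3-day library 1, which had the highest SPG level, 3 SPG markers were lower at an unadjusted p under 0.05. The SPC markers showed no such gap, with 0.02, 0.00 and 0.04 at 3 days against -0.03, 0.02 and -0.04 at 14 days. The number of SPC markers that were lower was 6 without 3-day library 3, 8 without 3-day library 1, 10 without 14-day library 1 and 13 without 14-day library 3. In the same order, 1179, 727, 902 and 1058 features of all were lower. Without 3-day library 3 the SPC share thus did not exceed that of all features.

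Among the spermatogonial markers, the lowest ratio belonged to Stra8, the retinoic acid target that licenses entry into meiosis. Stra8 had 11.5, 9.68 and 9.70 CPM in the 3-day libraries and 7.42, 7.03 and 7.64 CPM in the 14-day libraries. The groups did not overlap, and the log2 fold change was -0.48 (SE 0.109, edgeR adjusted p = 0.236, unadjusted p = 0.00261). In the 14-day libraries the deposited TPM of Stra8 deviated by -8.14%, 3.74% and -11.2% from the value that its count and effective length give, while transcripts other than Stra8 and Piwil1 agreed to within 0.00097%. With counts recomputed from the deposited TPM the log2 fold change was -0.56 (edgeR adjusted p = 0.198).

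Ccne2 encodes cyclin E2, which drives entry into S phase. Its level was 69.6, 71.2 and 76.9 CPM at 3 days and 61.1, 56.0 and 52.4 CPM at 14 days, a log2 fold change of -0.36 (SE 0.0726, edgeR adjusted p = 0.203). Tex19.1, which restrains transposable elements in the germ line and has a close paralog in rodents, had 18.2, 16.2 and 16.9 CPM against 12.2, 14.6 and 13.7 CPM. All 14-day values of both genes lay below all 3-day values. For Cited1, a transcriptional co-regulator, the values were 24.2, 19.9 and 21 CPM against 18.7, 18.0 and 17.2 CPM (log2 fold change -0.27, SE 0.0921, edgeR adjusted p = 0.310). Nucks1, a chromatin protein, had 24.9, 23.3 and 22.8 CPM against 20.7, 20.4 and 20.8 CPM. Slc25a31, the germ cell ADP/ATP carrier of mitochondria, was at 83.9, 79.3 and 77.3 CPM against 73.6, 72.1 and 70.4 CPM. Nucks1 and Slc25a31 thus differed little, by log2 fold changes of -0.20 and -0.15, but without overlap between the groups.

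The 6 other SPG markers did not pass the unadjusted threshold. Elavl2, Rac1, Hspa5, Atad5 and Ccnd1 had log2 fold changes between -0.23 (Elavl2) and -0.07 (Ccnd1), and Cdk2ap2 had 0.13. Hspa5, the main chaperone of the endoplasmic reticulum, was at 603, 607 and 597 CPM at 3 days and spread from 522 to 600.4 CPM at 14 days, so the groups overlapped. Two-sided exact permutation tests over the 6 libraries gave p = 0.1, the smallest that 3 against 3 allows, for each of the 6 SPG markers past the unadjusted threshold. Groups of 3 without overlap always give this value, so it adds nothing to the separation itself.

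Markers were further grouped by 13 functional lists, whose counts are set against the shares of all features at an unadjusted p under 0.05, 7.73% higher and 5.65% lower, and of the features in the bin of highest level, 13.9% and 7.66%. Both sets of shares include the markers themselves, and outside the markers 7.08% of features were higher and 5.66% lower. All markers that were higher were spermatid markers, and 46.2% of that class were higher. Of SPC markers 11.6% and of SPG markers 50.0% were lower. A list share near that of its class does not set the list apart, and no list was tested against its class.

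In meiosis, the genes of the synaptonemal complex, which holds paired chromosomes together, were lower or not separated. Of 10 markers of the complex and of meiotic prophase, 4 (40%) were lower at 14 days at an unadjusted p under 0.05 (Stra8, Sycp3, Syce2 and Psma8) and 0 were higher, with a median log2 fold change of -0.08. Sycp3, a component of the lateral elements, had 418, 364 and 389.8 CPM at 3 days and 337, 335 and 337 CPM at 14 days. The 14-day libraries were nearly equal and all lay below the 3-day libraries, with a log2 fold change of -0.22 (SE 0.0546, edgeR adjusted p = 0.252). Syce2, a protein of the central element that the study lists as a spermatid marker, had 14.3, 12.1 and 10.3 CPM against 9, 8.81 and 9.83 CPM (log2 fold change -0.41, SE 0.134, edgeR adjusted p = 0.297). Psma8, the germ cell subunit of the proteasome, had a log2 fold change of -0.13, again without overlap. Sycp2 (-0.08) and Syce1 (-0.06) did not pass the unadjusted threshold.

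Piwil1, which binds piRNAs in pachytene spermatocytes and round spermatids, did not separate the groups. Its level was 415, 402 and 468 CPM at 3 days and 396, 348 and 424 CPM at 14 days, with a log2 fold change of -0.14 (SE 0.0851, edgeR adjusted p = 0.513). The deposited TPM of Piwil1 deviated from its count by -8.71%, 5.41% and -9.60% in the 14-day libraries. With counts recomputed from TPM, the log2 fold change was -0.21 and passed the unadjusted threshold (edgeR adjusted p = 0.269). Among 5 markers of the piRNA pathway and germ granules, 2 (40%) were lower at an unadjusted p under 0.05, Tex19.1 and the RNA helicase Ddx25 (log2 fold change -0.10), while Ddx4 (-0.05) and Tdrd6 (0.00) were not.

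Of 21 cell cycle and chromosome segregation markers, 3 were higher and 3 lower (14.3% each), with a median log2 fold change of -0.03. The share that was higher was near the 13.9% of the most abundant features, a bin that includes markers. Smc4, a condensin subunit, had 673, 621 and 627 CPM at 3 days against 565, 586 and 544 CPM at 14 days (log2 fold change -0.18, SE 0.0478, edgeR adjusted p = 0.255). Ccne2 and Cep72, which belongs to the centrosome, were the others that were lower. The 3 that were higher, Kif2b, Kif2c and Knstrn, are spermatid markers in the study's list and act at the spindle in dividing cells. Kif2c had 275, 276 and 269 CPM against 321, 287 and 319 CPM.

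In the haploid phase, the markers of chromatin condensation in spermatids showed the highest median of the 13 functional lists, 0.27 on the log2 scale, with 4 of 5 markers (80%) higher at an unadjusted p under 0.05. Tnp1, transition protein 1, had 1848, 1916 and 1854 CPM in the 3-day libraries and 2695, 2328 and 2675 CPM in the 14-day libraries. The means were 1873 ± 37.7 (SD, n = 3) and 2566 ± 206 (SD, n = 3), a log2 fold change of 0.45 (SE 0.0593, edgeR adjusted p = 0.131). Without 14-day library 2, the lowest of the 14-day libraries, the log2 fold change of Tnp1 was 0.52 with an edgeR adjusted p of 0.0355, while the 5 refits that each left out another library gave edgeR adjusted p from 0.236 to 0.414. Transition protein 2, Tnp2, had 1132, 1170.1 and 1238 CPM against 1536, 1426 and 1861 CPM (log2 fold change 0.45, SE 0.0943, edgeR adjusted p = 0.214). Prm3, a protamine-like gene next to Tnp2 in the genome, was at 168, 189 and 202 CPM against 229.8, 221 and 225 CPM. The high-mobility-group gene Hmgb4 (log2 fold change 0.12) also separated the groups, and the spermatid linker histone Hils1 (0.09) did not.

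**Figure D2:**
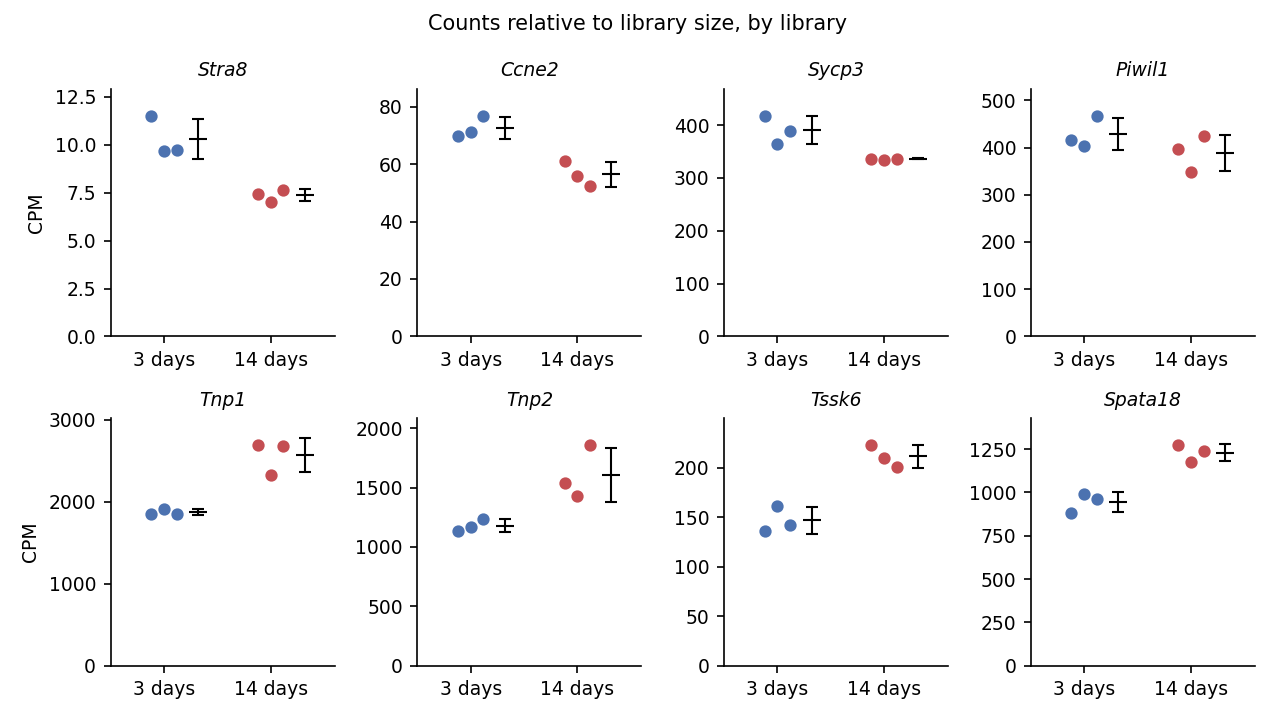
CPM (vertical axis, from 0) of 8 markers in the 3 libraries of each group. Points are libraries and bars the mean with its SD; the 14-day points of Stra8, Ccne2 and Sycp3 lie below and those of Tnp1, Tnp2, Tssk6 and Spata18 above all 3-day points, while those of Piwil1 overlap.

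Many genes of round spermatids are known targets of CREM, an activator that binds the cAMP response element, so the stretch before the start is shown for 3 spermatid genes among the 10 highest. Each runs 5′ to 3′ over the 150 bases before the RefSeq start in assembly GRCr8, with the core TGACG of the element in either orientation in capitals. Stra8, a gene of spermatogonia, is shown beside them.
Tnp1, chr9:82044279-82044428, minus strand: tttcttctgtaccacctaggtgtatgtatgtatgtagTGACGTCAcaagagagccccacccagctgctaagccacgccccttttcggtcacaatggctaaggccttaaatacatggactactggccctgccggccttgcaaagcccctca
Tnp2, chr10:5386585-5386734, plus strand: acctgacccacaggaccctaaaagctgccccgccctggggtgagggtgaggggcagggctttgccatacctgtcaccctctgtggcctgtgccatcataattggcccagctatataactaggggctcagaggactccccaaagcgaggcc
Tssk6, chr16:19559919-19560068, minus strand: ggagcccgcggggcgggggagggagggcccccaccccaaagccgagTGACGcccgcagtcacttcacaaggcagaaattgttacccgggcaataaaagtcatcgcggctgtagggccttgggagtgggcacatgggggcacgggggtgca
Stra8, chr4:64568430-64568579, plus strand: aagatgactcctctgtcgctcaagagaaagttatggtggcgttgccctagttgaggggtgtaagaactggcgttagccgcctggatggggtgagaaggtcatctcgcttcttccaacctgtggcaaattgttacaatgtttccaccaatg
The full palindrome TGACGTCA, in which the core is read on both strands, was present before Tnp1. Tssk6 had the core alone, and neither was found in these windows of Tnp2 and Stra8.

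RefSeq promoters (250 bases before to 50 after the start) were at hand for 486 of the 578 markers. The core TGACG, on either strand, was in 31.0% of the promoters of 145 spermatid markers that were higher at 14 days, in 26.3% of 175 spermatid markers that did not pass the threshold, in 30.7% of 153 SPC markers, in 29.4% of all 486 and in 22% of all 27457 promoters, so that the share for the spermatid markers that were higher was near that of markers in general. For the full TGACGTCA, which contains the core, the shares were 4.14%, 5.14%, 3.27%, 4.32% and 1.91% in the same order. The X-box core GTTGCC, on either strand, was in 15.9%, 21.7%, 20.3%, 19.14% and 12.2%. No test was made, and a match of letters is not a bound site. Crem itself, summed over its transcripts, was at 202, 199.8 and 193 CPM at 3 days and 198, 193 and 193 CPM at 14 days (log2 fold change -0.02, SE 0.0407, edgeR adjusted p = 0.838). Its single transcripts were not compared, so the sum does not give the level of the activator form.

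The testis-specific serine kinases phosphorylate proteins of late spermatids. Of 4 in the list, 3 (75%) were higher at an unadjusted p under 0.05. Tssk6, which is needed for histone replacement and sperm morphology, had the highest log2 fold change of the named markers, 0.53 (SE 0.0740, edgeR adjusted p = 0.157), from 136, 162 and 142 CPM to 223, 209.9 and 200.5 CPM. The 14-day libraries all lay above the 3-day libraries by a margin wider than the range of either group. Tssk4 (log2 fold change 0.20) and Tssk3 (0.16) also separated the groups, and Tssk2 (0.11) did not.

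Other spermatid markers among the 10 highest belong to varied functions. Spata18, which takes part in the quality control of mitochondria, had 882, 991 and 961 CPM against 1276, 1176 and 1238 CPM (log2 fold change 0.38, SE 0.0542, edgeR adjusted p = 0.160). Car2, the cytosolic carbonic anhydrase 2, had 34.7, 28.3 and 26.4 CPM against 39.8, 40.7 and 45.9 CPM (log2 fold change 0.50, SE 0.113, edgeR adjusted p = 0.236). Slc25a37, the mitochondrial iron importer mitoferrin 1, had 14.6, 15.4 and 13.9 CPM against 18.8, 20.2 and 18.5 CPM. Ccdc27 (log2 fold change 0.35), the cystatin-like Cstl1 (0.36), the serine protease-like Prss37 (0.33), which is needed for sperm migration into the oviduct, and Ctag2 (0.33) completed the 10. For Cstl1 and Ctag2 14-day library 2 was close to the 3-day range, at 30.8 CPM against at most 29.2 CPM and at 16.7 CPM against at most 16 CPM. Oaz3, the antizyme of haploid germ cells, was among the most abundant, with 2741, 3005 and 2933 CPM against 3713, 3466 and 3598 CPM (log2 fold change 0.31, SE 0.0457, edgeR adjusted p = 0.167).

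Genes of the sperm tail were split between those that were higher and those near 0. Of 28 flagellum markers, 11 (39.3%) were higher and 0 lower at an unadjusted p under 0.05, with a median log2 fold change of 0.08. Odf1, an outer dense fibre protein, had 2117, 2268 and 2210.5 CPM at 3 days against 2633, 2415 and 2780.3 CPM at 14 days. Akap4, the main protein of the fibrous sheath, had 1628, 1794 and 1728 CPM against 2076, 1892 and 1969 CPM (log2 fold change 0.21, SE 0.0507, edgeR adjusted p = 0.244). Akap3 (0.17), Cabyr (0.19) and Fscb (0.16), also of the fibrous sheath, passed the same threshold, although Akap3 overlapped, with 1264 CPM in 3-day library 2 and 1251 CPM in 14-day library 2. The axonemal gene Tekt1 was at -0.01 (SE 0.0567). None of the 4 markers of the sperm calcium channel passed the unadjusted threshold (median 0.01).

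For the acrosome and sperm-egg interaction, 4 of 22 markers were higher (18.2%) and 1 was lower (4.55%), with a median log2 fold change of 0.05. The most abundant features had 13.9% and 7.66%. Of the 22 markers, 4 (18.2%) lay wholly above and 5 (22.7%) wholly below the 3-day libraries, against 10.6% and 10.2% of all features. In the bin of highest level these shares were 15.6% and 13.2%. Capza3, an actin-capping protein, had 270.1, 271 and 283 CPM against 326, 304 and 325 CPM, and Eqtn, an acrosomal membrane protein, had 81.0, 80.3 and 77.3 CPM against 94.0, 87.3 and 91.0 CPM. Calr3 (log2 fold change 0.23) and Adam24 (0.16) were the others that were higher. Dkkl1, an acrosomal protein that the study lists as an SPC marker, was lower (-0.09), and Acrv1 (0.05) did not pass the threshold.

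Of 13 markers of energy metabolism, 4 were higher (30.8%) and 2 lower (15.4%), with a median of 0.08. Wholly above the 3-day libraries lay 3 (23.1%, against 10.6% of all features), and wholly below lay 3 (23.1%, against 10.2%). Gapdhs, the glyceraldehyde-3-phosphate dehydrogenase of sperm, had 1073, 1147 and 1173 CPM against 1309, 1288 and 1346 CPM (log2 fold change 0.22, SE 0.0437, edgeR adjusted p = 0.204). Got1l1, related to aspartate aminotransferase, had 24, 24.4 and 23.3 CPM against 29.9, 30.0 and 29.9 CPM, and the hexokinase Hk1 (0.15) and the glycerol phosphate dehydrogenase Gpd2 (0.24) were also higher. Those that were lower belong to earlier cells in the study's list, the SPG marker Slc25a31 and the SPC marker Cox7b2, a cytochrome c oxidase subunit (-0.20). Ldhc, the germ cell lactate dehydrogenase, was at -0.03 (SE 0.0461).

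Among chaperones and genes of endoplasmic reticulum stress, 7 of 16 (43.8%) were higher and 0 lower at an unadjusted p under 0.05 (median 0.06). Those that were higher were spermatid markers: Hspa1l had 621, 655 and 644 CPM against 785, 698 and 821 CPM, and Herpud1, a component of endoplasmic reticulum degradation, had 129.7, 138 and 135 CPM against 160.1, 152 and 160.4 CPM (log2 fold change 0.23, SE 0.0460, edgeR adjusted p = 0.200). Dnaja4 (0.24), Dnajc5b (0.19), Dnajb7 (0.19), Dnajb8 (0.17) and Calr3 made up the rest. Hspa2, the chaperone of meiotic cells, was at -0.04 (SE 0.0363) and did not pass the threshold.

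Lipid metabolism had 7 of 13 markers (53.8%) higher and 0 lower (median 0.15). Acsl1, which activates long-chain fatty acids, had 567, 637 and 601 CPM against 737, 673 and 738 CPM, and Lipe, the hormone-sensitive lipase, had 209, 234 and 238 CPM against 274, 253 and 281 CPM. Agpat2 (0.23), Lpin1 (0.18), Cyp51 (0.18), Dgat2 (0.17) and Agpat3 (0.15), enzymes of glycerolipid and sterol synthesis, were the others. In the ubiquitin system 7 of 17 were higher (41.2%) and 2 lower (11.8%), with a median of 0.12. The conjugating enzyme Ube2g2 had 62.7, 61.8 and 63.8 CPM against 73.1, 70.0 and 81.7 CPM, whereas the SPC marker Ube2t, a conjugating enzyme of DNA repair, had 39.6, 39.7 and 42.9 CPM against 36.5, 35.3 and 35.6 CPM. Transcription, messenger RNA storage and translation had 1 of 12 higher, the translation factor Eif4h (0.14), a share of 8.33% that is near the 7.73% of all features, and 0 lower, with a median of -0.02.

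**Figure D3:**
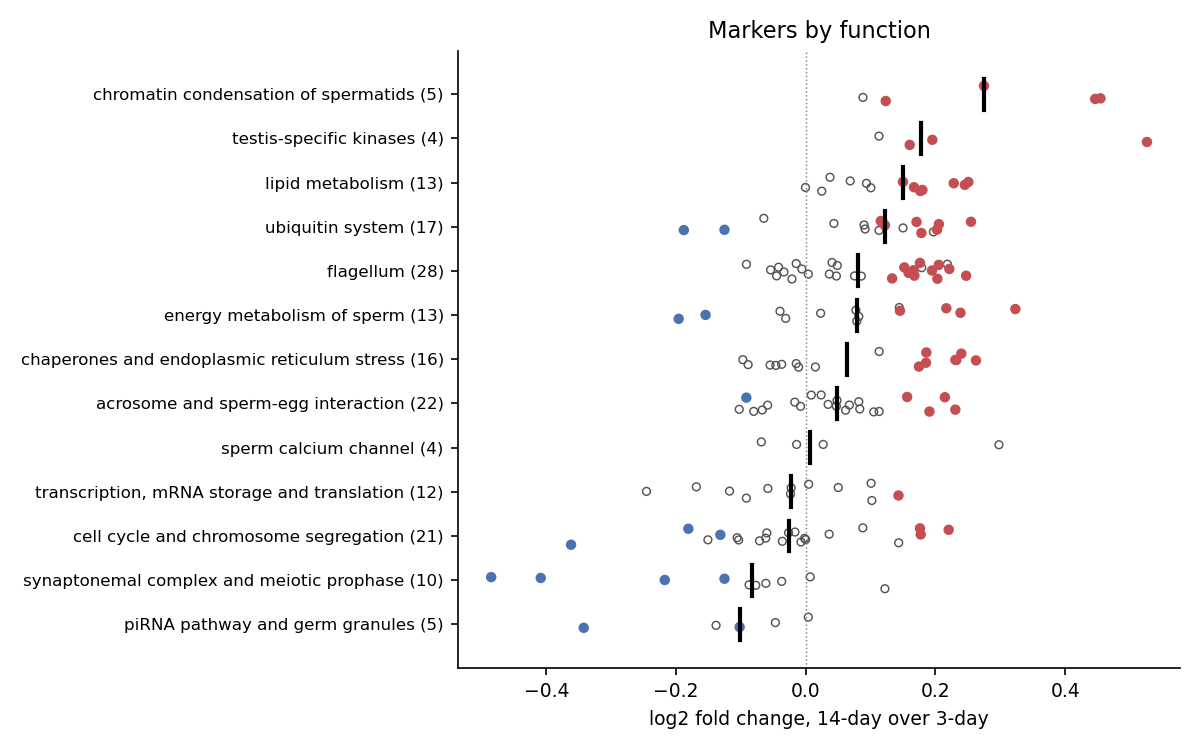
Log2 fold change of 14-day over 3-day libraries (horizontal axis) for the markers of 13 functional lists, ordered by their median (black bar), with the number of markers in brackets. Filled points had an unadjusted edgeR p under 0.05, red higher and blue lower; the medians run from -0.10 (piRNA pathway and germ granules) to 0.27 (chromatin condensation).

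By the germ cell stage that the study's list gives for each marker, the median log2 fold change was lowest in the first stages and highest in the last. It was -0.34 for the 3 markers of stage A1, -0.12 for the 8 of stage In and -0.36 for the 2 of stage BS, all listed as SPG. Across preleptotene, leptotene, zygotene and pachytene stages the medians lay between -0.09 (L, 25 markers) and -0.01 (mP, 45 markers). In the round spermatid stages the median was 0.13 for RS4 (306 markers, 44.8% higher), 0.15 for RS6 (180 markers, 48.9% higher) and 0.20 for RS8 (64 markers, 67.2% higher), against 7.73% of all features. A marker counts under every stage it is listed for, so the stages share genes, and no test of the order was made. With each marker under its earliest stage only, the median was 0.01 for mP and 0.04 for lP. Of the 25 leptotene markers 6 were lower (24%, against 5.65% of all features), among them Calm2, whose paralogs encode the same calmodulin protein, with 937, 895 and 929 CPM against 829, 839 and 832 CPM. Pbx4, a homeobox gene of meiotic prophase listed from G1 to eP, had 51.7, 50.5 and 58.4 CPM against 45.0, 45.3 and 48.8 CPM.

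**Figure D4:**
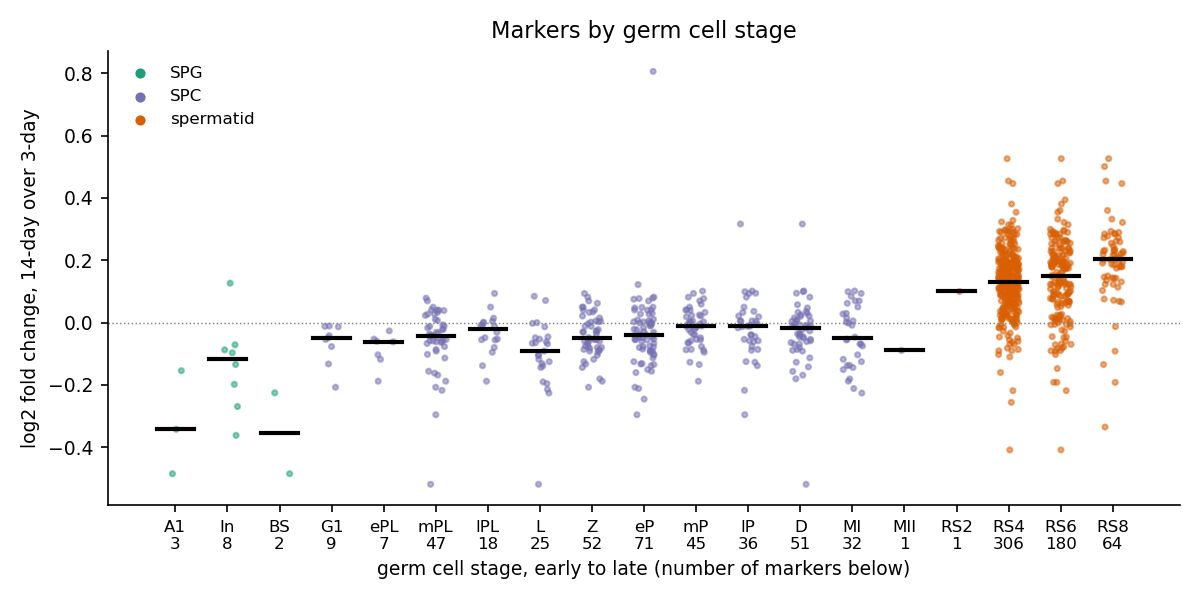
Log2 fold change of 14-day over 3-day libraries (vertical axis) for markers of 19 germ cell stages in the order of spermatogenesis (horizontal axis), coloured by class; black bars are medians. The bars lie below 0 from A1 to MII and above 0 from RS2 to RS8.

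Only 4 spermatid markers were lower at an unadjusted p under 0.05. Besides Syce2, Bcas2, a splicing factor, had 28.8, 26.7 and 27.1 CPM at 3 days against 22.9, 22.8 and 23.4 CPM at 14 days (log2 fold change -0.26, SE 0.0649, edgeR adjusted p = 0.253). Tmem232 (-0.15) and Rasa3 (-0.34), outside the rule for named genes and picked after their values were seen, completed the 4. Ccp110, a centriole protein and SPC marker, was also among the 10 lowest, with 248, 224 and 256 CPM against 224, 186 and 218 CPM, where 3-day library 2 and 14-day library 1 were almost equal.

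For Tnp1 and Tssk6 the 3-day mean lay below and the 14-day mean above the control mean. Both are among the 10 highest ratios of 14-day over 3-day, a choice that favours a low 3-day mean. Of these 10, with TMM factors over the 12 libraries, Ccdc27 and Ctag2 had a 3-day mean above the control mean. These means were 39.8 against 35.8 CPM and 14.9 against 14.6 CPM, while the others of the 10 had a 3-day mean below. All 3-day values of Tnp1 (1819, 1900 and 1848 CPM) lay within the control range of 1717 to 2321 CPM. With TMM factors over all 12 libraries, Tnp1 had 2044 ± 305 CPM (SD, n = 3) in the control, 1856 ± 41.0 CPM in the 3-day, 2554 ± 201 CPM in the 14-day and 2811 ± 184 CPM in the 21-day group. Tssk6 had 175 ± 12.4, 145 ± 13.5, 210.2 ± 11.4 and 246 ± 43.6 CPM in the same order. Stra8 had 8.98 ± 0.280, 10.2 ± 0.988, 7.33 ± 0.290 and 5.84 ± 0.247 CPM, so that the 3-day mean was the highest of the 4. In the 21-day libraries too its deposited TPM deviated from the count, by -0.491%, 3.97% and 1.46%. The comparisons below share libraries and are given side by side. For the spermatid markers, the median log2 fold change was 0.14 from 3 to 14 days, 0.16 from 3 to 21 days, 0.10 from control to 14 days and -0.04 from control to 3 days. For the SPG markers these medians were -0.18, -0.26, -0.26 and -0.08. The stage RS8 markers had 0.20, 0.29, 0.10 and -0.11, and the markers of chromatin condensation 0.27, 0.39, 0.10 and -0.06. The control libraries were uneven. Relative to the mean of the 12 libraries, their SPG markers were at 0.26, 0.04 and 0.09 and their spermatid markers at -0.20, 0.06 and -0.02. The latter range spanned all 3-day libraries. From control to 14 days, 41 spermatid markers and 1515 features of all were higher at an unadjusted edgeR p under 0.05.

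**Figure D5:**
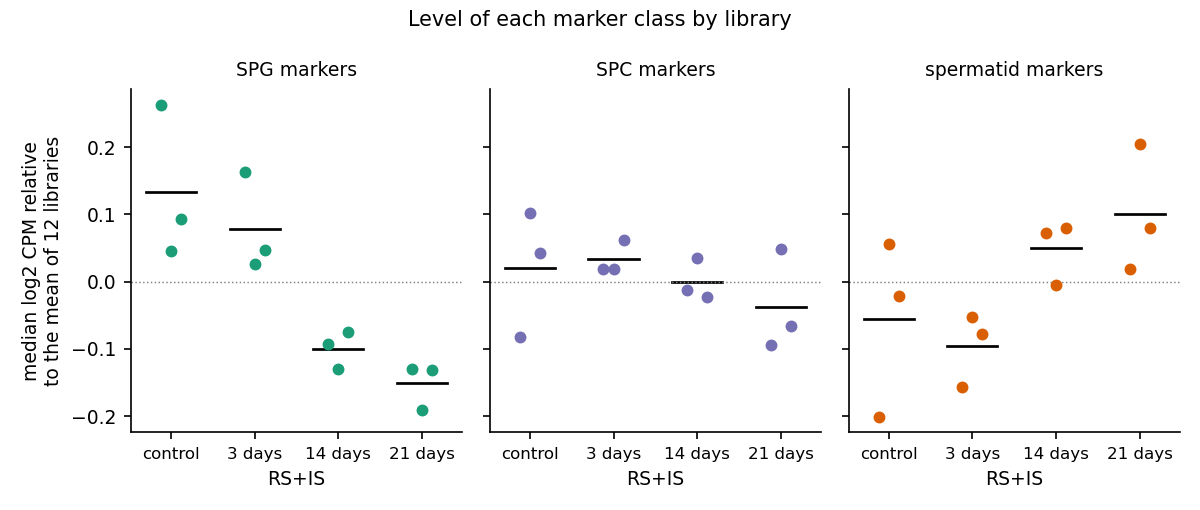
Median log2 CPM of each marker class relative to the mean of the 12 libraries (vertical axis), by group (horizontal axis); points are libraries and bars group means. SPG markers were at -0.08 to -0.13 in the 14-day libraries and at 0.03 to 0.16 in the 3-day libraries, and spermatid markers at -0.00 to 0.08 and at -0.16 to -0.05.

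Length and level of the transcripts went little with the median log2 fold change of all features, but the share past the unadjusted threshold did go with level. In 5 equal bins of transcript length the median log2 fold change lay between -0.01 and 0.01, and in 5 equal bins of mean level between -0.02 and 0.035. In the bin of lowest level 2.98% of features were higher and 2.77% lower at an unadjusted p under 0.05. In the bin of highest level these shares were 13.9% and 7.66%. Across the 21139 features, which are not independent replicates, Spearman's rho of the log2 fold change was -0.03 with length and -0.01 with mean CPM. Within the marker classes, rho with length was 0.158 for the 181 SPC and 0.033 for the 385 spermatid markers.

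Outside the markers, the largest fitted differences belonged to transcripts of few counts that were at 0 in every library of a group. ENSRNOT00000084826.1 had 0 counts in each 3-day library and 60, 65 and 46 counts in the 14-day libraries, which is at least 20.6-fold higher against a floor of 3 counts per library. ENSRNOT00000071413.2 had 0 counts at 3 days and 56, 55 and 27 counts at 14 days (at least 16.6-fold higher). ENSRNOT00000046192.4 had 30, 71 and 32 counts at 3 days and 0 at 14 days (at least 13.3-fold lower), and ENSRNOT00000086355.1 had 41, 32 and 11 counts against 0 (at least 8.59-fold lower). Their edgeR adjusted p-values ran from 0.131 to 0.200. They passed the count filter only through the group that held counts and were picked for these extreme values. Their p-values and fold changes therefore give no support for a difference. These transcripts also varied within the other groups: ENSRNOT00000071413.2 had 20, 19 and 0 counts in the control and 0, 0 and 48 counts in the 21-day libraries. In all, 12 features were at 0 in every 3-day library with at least 3 counts in every 14-day library, and 13 features showed the reverse.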

How the data were processed

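The tables deposited by the authors list 31715 Ensembl transcripts per library with estimated counts and TPM, which scales the count by the deposited effective length and by library size; the study's methods and the labels name Trimmomatic, HISAT2, HTSeq and Rnor_6.0, with versions not given in the sources used here. HTSeq gives whole counts per gene, so the program that made these non-whole counts per transcript, whose columns resemble kallisto output, is also not given in the sources used here. After rounding of the deposited estimated counts, the transcripts of each of the 578 markers (424 matched as a single transcript, 150 as a run of neighbours, 3 as separate runs and Piwil1 by counts alone) were summed, giving 31512 features. Libraries were compared with edgeR 4.0.16 (R 4.3.3; TMM, filterByExpr, glmQLFit and glmQLFTest) on the 6 libraries, with Benjamini-Hochberg adjustment over all 21139 features. The SE is the log2 fold change over the square root of F. CPM uses TMM factors.

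Groups came from the sample titles. The named genes are the study's genes Stra8, Sycp3, Piwil1 and Tnp1 with Tnp2, the 12 SPG markers, the 10 markers at each end of the log2 fold change among those with an unadjusted p under 0.05, groups that did not overlap and a mean of at least 10 CPM, up to 4 members of each functional list and stage by p, and the highest and lowest other transcripts, of which 2 per direction are printed. Counts of a list name further members. Members and lists were chosen with earlier results of these data known. Between libraries of a group, chi-square over its degrees of freedom was 8.85 to 11.5, so none was taken for a copy of another. The test was tried on simulated counts of 20648 features for the 14-day against 3-day comparison, where it found 14 of 64 at a log2 fold of 0.5, 41 of 66 at 1 and 53 of 64 at 2, and called 10 of 20454 unchanged features. The alternatives were other scalings (RLE, total count, TMM outside the markers), no filter, a minimum of 10 counts per library, all 12 libraries in one fit, a block for the replicate number, DESeq2 1.42.0, limma 3.58.1 on log2(TPM + 1), transcripts not summed, and each library left out. Recomputing the marker counts with Stra8 and Piwil1 taken from TPM was added after seeing the data. Same-numbered libraries did not deviate together (correlations -0.07, -0.03 and -0.01 over features), so the numbers were not treated as pairs. Exact tests used SciPy 1.17.1, and tables Python 3.11.15 with pandas 2.3.3.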

Additional observations from a re-analysis of the deposited data

How the results depend on the processing

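DESeq2 called 411 features and 79 markers at an adjusted p under 0.05, where edgeR called 0 of both. The number of SPC markers that were lower (21) was 32 with scaling to the total count, 7 with all 12 libraries in one fit and 13 with the replicate block, and 1 SPC marker was higher with TMM from features outside the markers, with the replicate block and with limma on log2(TPM + 1). With total-count scaling, all 12 libraries and the block, 1620, 808 and 925 features of all were lower. The number of spermatid markers that were higher (178) was 103 with all 12 libraries in one fit. Scaling to the total count turned the split of all features past the unadjusted threshold from 1634 higher and 1195 lower to 1343 higher and 1620 lower, and limma on log2(TPM + 1) gave 1319 and 1621, while the median of all features moved from -0.01 to -0.03 and -0.02. With each marker under its earliest stage only, the median was -0.23 for BS, -0.0290 for Z, -0.00174 for MI, 0.00513 for mP and 0.0362 for lP, the last pair reversed in sign. The cause of these shifts was not tested.

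With 1 library left out at a time, 0 to 2 features and 0 to 1 markers passed an adjusted p of 0.05. At the unadjusted threshold, 1137 to 1584 features were higher and 727 to 1179 lower, 0 SPG markers were higher and 3 to 6 lower, 0 to 3 SPC markers were higher and 6 to 18 lower, and 114 to 204 spermatid markers were higher and 2 to 6 lower. The median log2 fold change stayed between -0.20 and -0.14 for SPG, -0.05 and -0.02 for SPC and 0.11 and 0.17 for spermatid markers. The 93 named genes refitted were the study's genes, the SPG markers and those with an unadjusted p under 0.05. Named genes near 0 outside these were not refitted. Apart from the study's genes and the SPG markers, the refitted genes were picked by that p in these same libraries. A kept direction was thus favoured in advance and gives no support. Among the 93, only Ccnd1 changed direction in any refit. Its log2 fold change ran from -0.157 without 3-day library 3 to 0.0109 without 3-day library 1. With the replicate block, 1335 features were higher and 925 lower, and the class medians were -0.18, -0.04 and 0.14. In simulated data of the same size 14 of 64 features with a log2 fold of 0.5 were found.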
